A study of Mus musculus with 185 samples.

Results

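The genes of major histocompatibility complex (MHC) class I and of its peptide supply were read out in single epidermal Langerhans cells (LCs). They were chosen by name and are 10 of the 45661 genes listed: the heavy chains H2-K1 and H2-D1, the light chain B2m, the peptide transporter genes Tap1 and Tap2, the loading factor Tapbp, the immunoproteasome subunits Psmb8 and Psmb9, the trimming enzyme Erap1 and the transactivator Nlrc5. All 10 are listed in the deposited counts, and 9 of them, all but Nlrc5, were read in 25% or more of either origin's cells and entered the comparison.

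The cells came from bone marrow chimeras made by grafting wild-type (WT) CD45.2 bone marrow into lethally irradiated Cd207DTR mice (B6, CD45.1). The hosts were given 5 ng of diphtheria toxin (DT) per gram of body weight, and cells were sorted 2 months later. Host LCs (CD45.1) are called eLCs, for embryo-derived LCs, and donor LCs (CD45.2) are called moLCs, for monocyte-derived LCs. All mice had thus been irradiated, grafted and given DT, and host cells carried the DT receptor in the Cd207 (Langerin) locus while donor cells did not, so that origin, allele and irradiation of the cell go together and cannot be told apart. Cells had been index sorted as Lineage- cells positive for MHCII, CD326, CD24, CD11b and CD11c, so MHC class II protein was part of the gate and class I was not.

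Class I molecules show peptides from inside the cell to CD8+ T cells. A heavy chain pairs with beta-2 microglobulin in the endoplasmic reticulum (ER), where the TAP1 and TAP2 transporter delivers peptides that the proteasome has cut in the cytosol, tapasin (Tapbp) holds the empty heavy chain at the transporter, and ERAP1 trims peptides to length. Interferons raise most of these genes, partly through NLRC5, which acts at an SXY module that class I and class II promoters share. LCs can also place antigen taken up from outside on class I, which is known as cross-presentation.

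Counts of reads per gene were compared as CPM, a gene's reads out of each 1000000 reads on genes of the cell or group. The 182 cells with at most 5% of reads on mitochondrial genes were kept and 3 were not; of these 182, 67 were moLCs of plate 1, 36 moLCs of plate 2, 29 eLCs of plate 1 and 50 eLCs of plate 2. The plates thus hold the origins in unequal numbers, so a sum over both mixes plate with origin, and for a gene that differs between plates the summed ratio can lie outside both plates' own ratios, as for H2-D1 and Tap1. Each had between 432614 and 4525429 reads on genes (median 2904473), and a median of 4026 genes was read in moLCs against 4488 in eLCs. Cd207, the defining LC marker, was read in 99% of moLCs and in all eLCs. The summed levels of the other cell types' markers, in ranges over the 4 combinations of origin and plate, were 4.93 to 28 CPM for 6 keratinocyte genes (2 of them without a read in any cell, and the sum higher in moLCs on both plates), 52.3 to 100.02 CPM for 5 dermal DC1 genes (higher in eLCs on both plates) and below 1 CPM for the T cell, monocyte and melanocyte lists; their part in the values below was not tested. Which animal a cell came from is not labelled, so an origin counts as 1 sample, no test was run between origins and no p-value is given. Intervals are at 95% and cover counting error only, and PCR copies of a molecule count as separate reads because the kit adds no molecular identifiers.

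The promoters of the 3 genes that were read in every cell, H2-K1, H2-D1 and B2m, are shown as a description. Whether their motifs have a part in the levels or correlations below was not tested. Sequences are RefSeq windows of GRCm38.p6, which 8 of the 10 genes matched, and end before the RefSeq start of transcription. Capitals mark 4 motifs searched on both strands: the kB motif GGGGATTCCCC, the interferon-stimulated response element (ISRE) written as GAAANNGAAA, the CRE core TGACG of the X2 box, and the Y box CCAAT, which reads ATTGG on the other strand. For H2-K1 (chr17:34000348-34000597, minus strand) and B2m (chr2:122147437-122147685, plus strand) the upstream window is given. The H2-D1 window lies inside an exon of a longer GENCODE transcript, so only 2 stretches of 30 bases are given, the kB motif with its flanks (chr17:35262914-35262943, plus strand) and the stretch from the CRE core to the Y box (chr17:35262993-35263022, plus strand).
H2-K1: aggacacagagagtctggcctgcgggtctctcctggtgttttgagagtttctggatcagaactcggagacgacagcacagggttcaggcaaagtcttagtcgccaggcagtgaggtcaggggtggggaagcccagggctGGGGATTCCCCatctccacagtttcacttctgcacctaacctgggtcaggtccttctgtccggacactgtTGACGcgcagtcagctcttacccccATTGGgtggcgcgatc
B2m: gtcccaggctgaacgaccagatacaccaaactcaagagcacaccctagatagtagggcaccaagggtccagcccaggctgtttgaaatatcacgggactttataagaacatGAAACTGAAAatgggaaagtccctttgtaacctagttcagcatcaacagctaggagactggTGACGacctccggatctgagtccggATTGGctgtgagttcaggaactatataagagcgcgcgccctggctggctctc
H2-D1, kB: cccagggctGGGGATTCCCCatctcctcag
H2-D1, X2 to Y: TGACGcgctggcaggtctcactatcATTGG

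In each of these 3 genes a CRE core was followed, 20 bases on, by an inverted Y box. This spacing was noticed in the sequences and then searched for, and 0.0913% of 32851 RefSeq windows hold it; among the class I and class II genes looked up, H2-M3 was the other one. The kB motif was in the windows of H2-K1 and H2-D1 but not in that of B2m (0.0304% of all windows, among them that of H2-Q6). The ISRE letters GAAANNGAAA were in the B2m window but in neither heavy chain's (2.98% of all windows). Only these exact letters were searched, so variant forms of either motif were not looked for, and a window without a match may still hold one. TGACG alone was in 17.8% of windows and CCAAT in 33.8%. The heavy chains matched at 29 of 30 bases around the kB motif and at 23 of 30 bases from CRE core to Y box, where H2-K1 and B2m matched at 13. A match of letters is a description of the window and not a binding site.

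Levels were ordered per length. In CPM per kb of merged exons, summed over moLCs, H2-D1 stood at 1767, B2m at 1548 and H2-K1 at 613, then Tapbp at 44, Psmb8 at 37.8, Tap1 at 15.4, Psmb9 at 9.52, Tap2 at 9.41 and Erap1 at 3.82, with Nlrc5 at 0.0137. In eLCs the order was the same except that Tap2 (12.6) stood above Psmb9 (10.7). Over the 4 combinations of origin and plate, the ranges of H2-D1 (1515 to 2116) and B2m (1230 to 1816) overlapped, and so did those of every pair of neighbours from Tapbp down to Tap2. The range of H2-K1 (570.3 to 730.3) overlapped neither neighbour's, and that of Erap1 (2.85 to 3.97) lay below all but that of Nlrc5. With the length of the longest coding transcript in place of merged exons, Psmb8 (78.5 in moLCs) stood above Tapbp (55.1). The range of H2-K1 (1035 to 1325) then overlapped that of B2m (1230 to 1816), while that of H2-D1 (1859 to 2596) no longer did. Psmb9 (25.8 in moLCs and 28.9 in eLCs) then stood above Tap2 (10.3 and 13.8) in both origins.

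The heavy chains, which bind the peptide, were read in all 182 cells. H2-K1 ranged from 305 CPM to 4044 CPM among moLCs (median 1594) and from 174 CPM to 8064 CPM among eLCs (median 1984). H2-D1 ranged from 853 CPM to 14806 CPM among moLCs (median 4368) and from 272 CPM to 8676 CPM among eLCs (median 4411). For both genes the origins overlapped almost throughout. Summed over cells, H2-K1 was at 1801 CPM (moLCs) and 2096 CPM (eLCs), which is a log2 ratio of moLCs over eLCs of -0.22 (-0.22 to -0.21), with -0.20 on plate 1 and -0.30 on plate 2. H2-D1 was at 4558 and 4649 CPM, a log2 ratio of -0.03 (-0.03 to -0.03), with -0.15 and -0.07 within plates. Reads of these 2 genes cannot all be assigned: of the 75-base stretches of the longest coding transcript, 6.90% of H2-D1's and 1.55% of H2-K1's also occur in other genes. All 24 such stretches of H2-K1 occur in H2-D1, and H2-Q1 holds the most of those of H2-D1.

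B2m encodes the light chain that every classical class I heavy chain needs. It was read in all cells, between 343 CPM and 4509 CPM in moLCs (median 1215) and between 255 CPM and 5074 CPM in eLCs (median 1208), so that the origins overlapped in full over the moLC range. The summed log2 ratio was -0.03 (-0.04 to -0.02) but stood on opposite sides of 0 in the plates, at 0.30 on plate 1 and -0.18 on plate 2. Between plates, B2m was higher on plate 2 in eLCs by a log2 of 0.56 and in moLCs by 0.08.

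**Figure D1:**
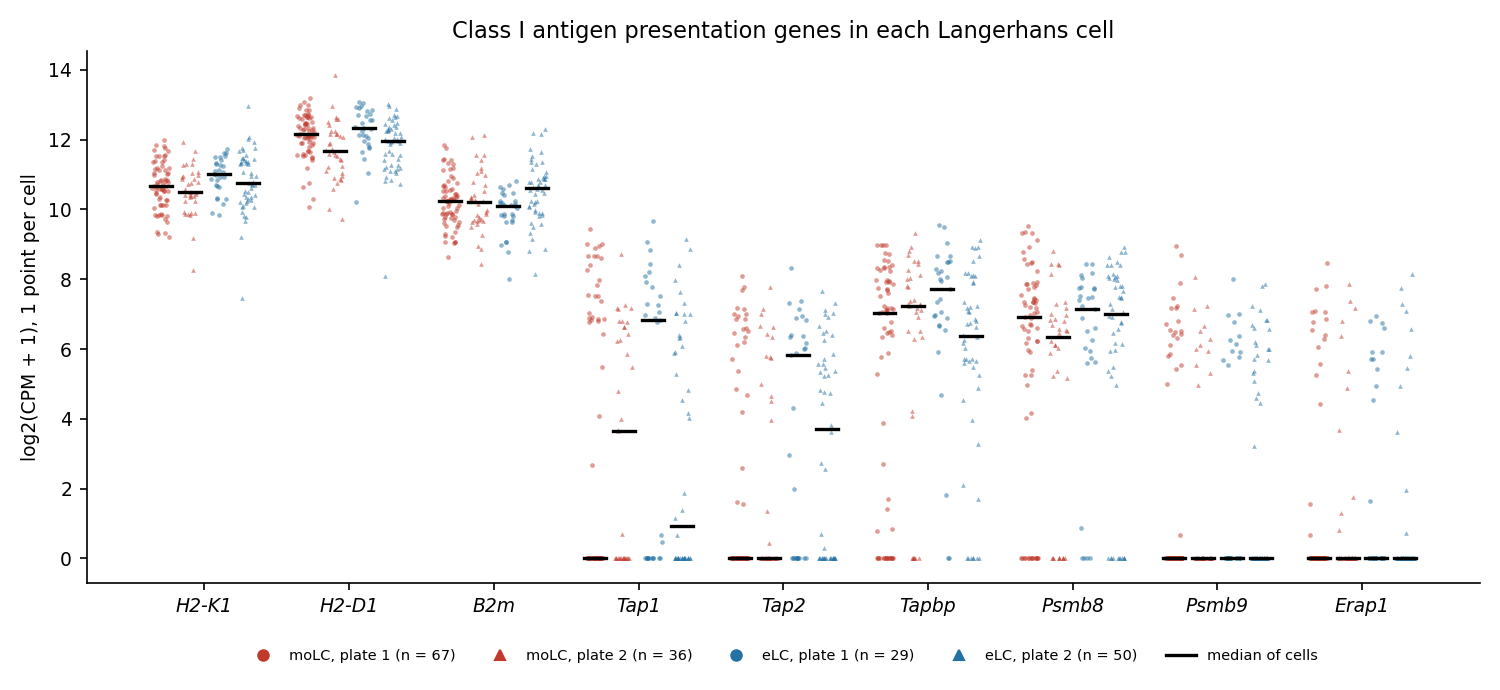
Level of 9 genes in each of 182 cells, as log2(CPM + 1) on the vertical axis, grouped by gene on the horizontal axis and by origin and plate (colour and marker), with the median of cells as a bar. H2-K1, H2-D1 and B2m form one band with no cell at 0, while the other 6 genes split into cells at 0 and cells with reads in both origins.

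The transporter genes Tap1 and Tap2 were lower in moLCs in both plates, by less than 2-fold. Tap1 was read in 49 moLCs (47.6%, exact Clopper-Pearson interval 37.6 to 57.6%) and 44 eLCs (55.7%, 44.1 to 66.9%), ranging from 0 CPM to 699 CPM in moLCs (median 0) and from 0 CPM to 817 CPM in eLCs (median 1.59). The sums of 84.5 CPM for moLCs and 109.9 CPM for eLCs gave a log2 ratio of -0.38 (-0.40 to -0.35), with -0.70 on plate 1 and -0.40 on plate 2. The share did not follow in both plates, since on plate 2 Tap1 reads were found in 55.6% of moLCs but 52% of eLCs. Of the Tap1 reads on plate 2, 28.9% of those in moLCs came from 1 cell and 23% of those in eLCs from another. Under the alternatives described at the end, the log2 ratio of Tap1 ran from -0.70 to -0.077.

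Tap2 differed most in the share of cells. It was read in 41 moLCs (39.8%, 30.3 to 49.9%) and in 48 eLCs (60.8%, 49.1 to 71.6%), from 0 to 271 CPM in moLCs (median 0) and from 0 to 321 CPM in eLCs (median 18.7). The shares were 37.3% and 62.1% on plate 1 and 44.4% and 60% on plate 2, and after each cell was thinned to 2052512 reads they were 39.6% and 59.7%. Tap2 was the 1 member whose share was lower in moLCs by at least 15 percentage points within each plate, a threshold chosen after the shares were seen; 3.08% of all genes tested met it. Among cells with a read the order of the medians was the reverse, at 80.5 CPM in moLCs and 60.5 CPM in eLCs, and the ranges overlapped. Its summed log2 ratio was -0.42 (-0.46 to -0.38), with -0.70 and -0.22 within plates.

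Tapbp, which encodes tapasin, had a read in 77.7% of moLCs (68.4 to 85.3%) and in 88.6% of eLCs (79.5 to 94.7%). It ranged from 0 to 638 CPM in moLCs (median 139) and from 0 to 756 CPM in eLCs (median 117), so the medians and the shares pointed opposite ways and the ranges overlapped. Its summed log2 ratio was -0.25 (-0.27 to -0.23), from -0.72 on plate 1 to 0.24 on plate 2. The sign was therefore not the same in both plates.

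**Figure D2:**
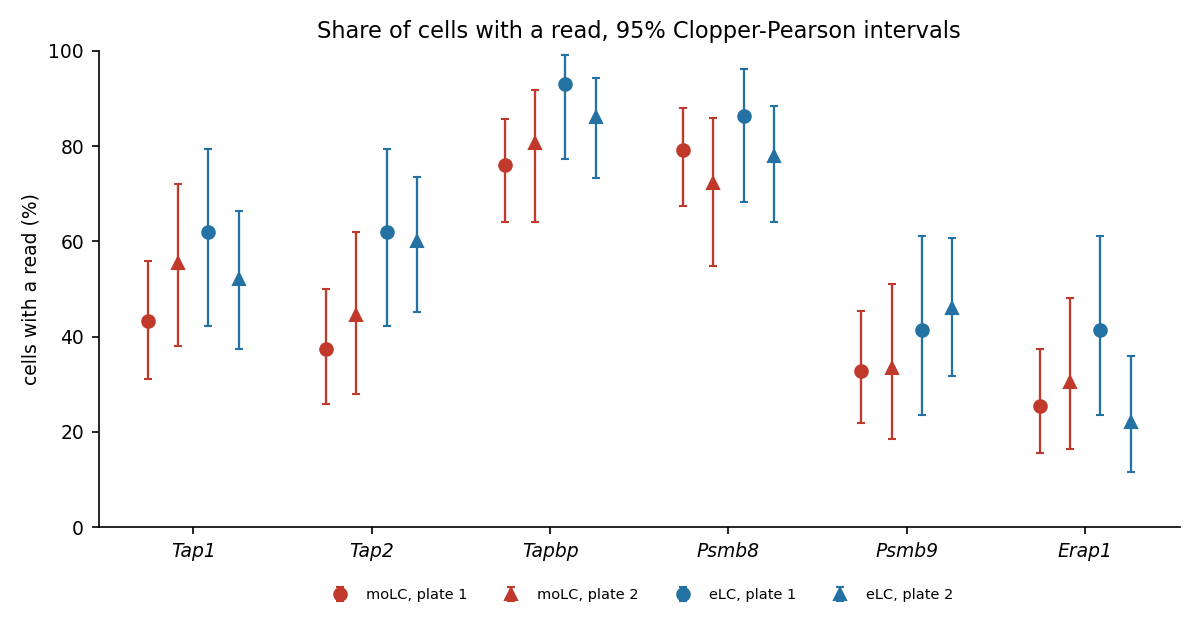
Share of cells with a read (vertical axis, %) of 6 genes, those of the 9 compared that were not read in every cell, by origin (colour) and plate (marker), with 95% exact Clopper-Pearson intervals for counting error. Tap2 lies at 37.3% and 44.4% in moLCs against 62.1% and 60% in eLCs, and for each gene the intervals of the 2 origins overlap within a plate.

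Psmb8 and Psmb9 encode catalytic subunits that replace the constitutive ones in the immunoproteasome. Reads of Psmb8 were found in 76.7% of moLCs (67.3 to 84.5%) and in 81% of eLCs (70.6 to 89%), from 0 to 743 CPM in moLCs (median 99.5) and from 0 to 487 CPM in eLCs (median 132). The origins overlapped, and the summed log2 ratio of -0.22 (-0.24 to -0.20) came from plate 2 (-0.67), as plate 1 gave 0.03. The share of cells with a Psmb9 read was 33% for moLCs (24.1 to 43%) and 44.3% for eLCs (33.1 to 55.9%), from 0 to 493 CPM in moLCs and from 0 to 257 CPM in eLCs, with a median of 0 in both. Its summed log2 ratio was -0.16 (-0.21 to -0.12), with -0.14 and -0.37 within plates, and it moved between -0.34 and -0.01 as single cells were left out, since 12.5% of its moLC reads came from 1 cell and 11.5% of its eLC reads from another.

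Against their constitutive counterparts, measured per kb, the immune subunits took shares whose intervals overlapped between origins for 2 of 3 pairs when both plates were summed, but not on every plate taken alone. Psmb8 made up 23% of the reads per kb of Psmb8 and Psmb5 in moLCs (22.8 to 23.3%) and 23.1% in eLCs (22.8 to 23.4%), and Psmb9 made up 4.52% (4.43 to 4.6%) and 4.53% (4.44 to 4.63%) of those of Psmb9 and Psmb6. Within plates the first pair differed by more than the counting intervals, in opposite directions. It stood at 27.4% in moLCs and 23% in eLCs on plate 1 and at 15.9% and 23.2% on plate 2. Counting intervals leave out the spread between cells. The cells' own shares of this pair had standard deviations of 23.3 to 27.9 percentage points over the 4 combinations of origin and plate. The second pair stood at 5.21% and 4.96% on plate 1, where the intervals overlapped, and at 3.39% and 4.25% on plate 2, where they did not overlap. The third pair, Psmb10 with Psmb7, stood at 53.4% in moLCs (52.7 to 54%) and 61.9% in eLCs (61.2 to 62.5%), and was lower in moLCs on plate 1 (55.8% against 66.2%) and on plate 2 (49.6% against 59.2%). Psmb10 was read in only 32% of moLCs and 38% of eLCs, and the median of the cells' own shares was 0 in both. Of its eLC reads on plate 1, 33.6% came from 1 cell. With each cell left out, the eLC share on plate 1 ran from 58.3 to 68.4%. The shares depend on the gene lengths taken: with the longest coding transcripts, the first pair stood at 38.3% and 38.4%, and the third at 33.5% and 41.7%. Of the 75-base stretches of Psmb5, 40% also occur in other genes, mainly the pseudogene Gm3375.

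**Figure D3:**
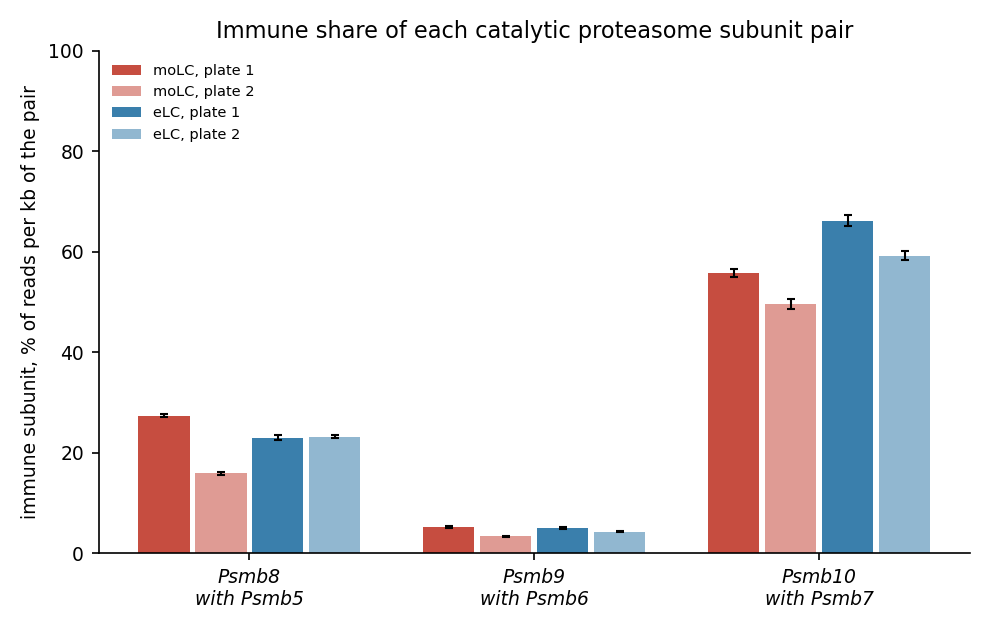
Share of reads per kb of merged exons that fell on the immune subunit of each catalytic proteasome pair (vertical axis, %; horizontal axis, pair), in bars by origin (colour) and plate (shade), with 95% exact intervals for counting error. The Psmb9 pair stays between 3.39% and 5.21%, and the Psmb10 pair is the one with both eLC bars above both moLC bars.

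Erap1, the aminopeptidase that trims peptides in the ER, was the 1 member higher in moLCs in all cells and in each plate. The shares of cells with a read were 27.2% for moLCs (18.9 to 36.8%) and 29.1% for eLCs (19.4 to 40.4%), from 0 to 354 CPM in moLCs and from 0 to 285 CPM in eLCs, with a median of 0 in both. The sums of 27.8 and 21.4 CPM gave a log2 ratio of 0.37 (0.32 to 0.43), with 0.37 and 0.31 within plates, where 19.5% of all genes tested were above 0 in all 3. Of its eLC reads, 19.2% came from 1 cell, and without that cell the log2 ratio was 0.65. The share of cells did not follow, being 25.4% in moLCs and 41.4% in eLCs on plate 1 and 30.6% and 22% on plate 2.

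Nlrc5, the transactivator of class I genes, was at the floor of detection. A single moLC of plate 1 held 35 reads (8.26 CPM in that cell), and the other 181 cells held none. The 0 of 79 eLCs allow a share of up to 3.80% by a limit of 3 counts, or 4.56% by the exact Clopper-Pearson interval. The 2 heavy chains were read in every cell while their transactivator's transcript was read in 1.

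Taking the members together, 0 of the 9 tested were past the rule for size, where 2.02% of all 6522 genes tested were past it. The rule asks for a read in 25% or more of either origin's cells and a 2-fold or larger difference with 1 direction on plate 1, on plate 2 and in the sum of both. Counting only the sum of both plates, 0 of 9 members were 2-fold apart, beside 5.72% of all genes, and between plates 0 of 9 were 2-fold apart the same way for moLCs and for eLCs, beside 1.36%. The nearest to that was Tap1, lower on plate 2 by a log2 of 0.82 in moLCs and 1.12 in eLCs. The log2 ratio was below 0 for 8 of 9 members in all cells, beside 60.6% of all genes, and for 5 of 9 in all cells and within each plate (H2-K1, H2-D1, Tap1, Tap2 and Psmb9), beside 33.7%. The members' median was -0.22 (-0.15 on plate 1 and -0.22 on plate 2), where that of all genes tested was -0.10 (-0.07 and -0.09). TMM factors, which rescale library totals so that most genes do not differ, moved every log2 ratio up by 0.10 and brought the median of all genes to 0.00; H2-D1 and B2m then stood at 0.07 each and 6 of 9 members below 0. With equal weight for each cell the members' median (-0.077) was no longer below that of all genes (-0.083). In number of members read per cell, moLCs had a median of 6 and eLCs 7, and a count of 5 or fewer was seen for 35.9% of moLCs but 17.7% of eLCs (38.5% and 17.9% after thinning). Within plates the medians were 6 and 7 on plate 1 and 6 in both origins on plate 2, and the shares with 5 or fewer were 38.8% and 13.8% on plate 1 and 30.6% and 20% on plate 2. Fewer genes of any kind were read in moLCs, as given above. The median difference in share of cells with a read, moLCs minus eLCs, was -4.31 percentage points over the 9 members tested. Over all 6522 genes tested it was -4.12, so the members were near the general level. The part of the number of genes read in the members' shares was not tested.

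**Figure D4:**
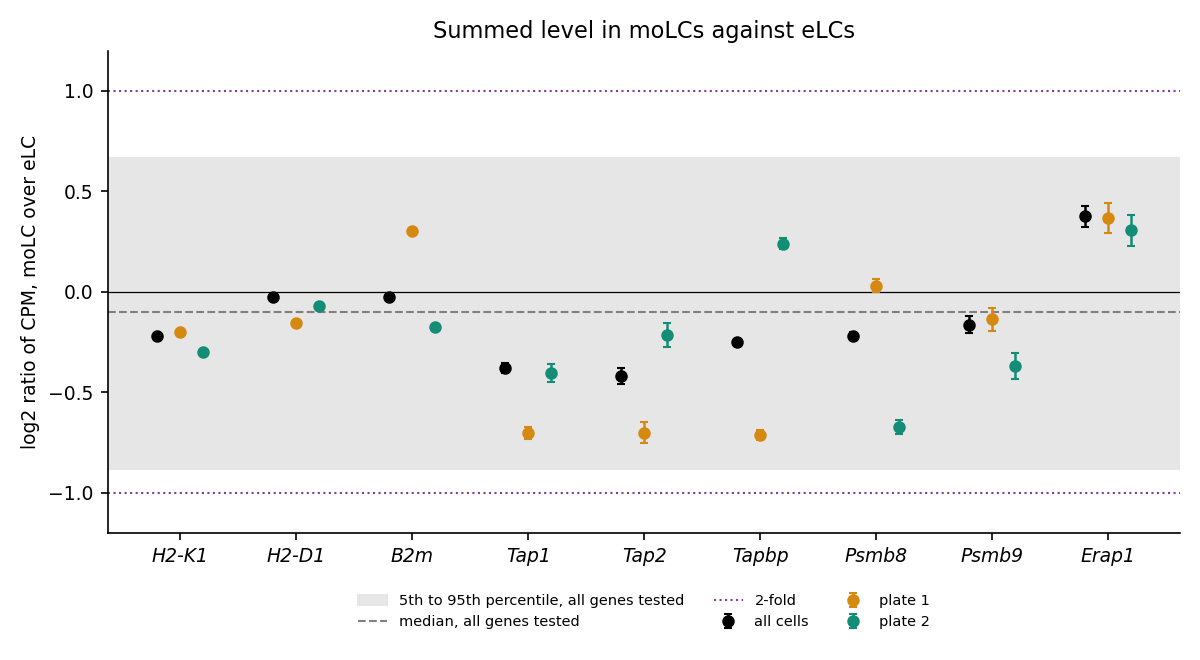
Log2 ratio of summed CPM, moLC over eLC (vertical axis), for 9 genes (horizontal axis) in all cells and in each plate, with 95% intervals for counting error. The grey band spans the 5th to 95th percentile of all 6522 genes tested (-0.88 to 0.67), and every point lies inside it and inside the 2-fold lines.

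Across cells, the members formed small sets rather than 1 block. Spearman's rho of CPM was computed within each of the 4 combinations of origin and plate and averaged with the number of cells as weight, over 182 cells that share preparation and depth, and is given as a description. H2-K1 and H2-D1 had the highest value of the 36 pairs, 0.54 (0.34 to 0.73 over the 4 combinations). Psmb8 and Psmb9 followed at 0.35, B2m and Psmb8 at 0.34, Tap1 and Tap2 at 0.33 and Tap1 and Psmb8 at 0.29. These 5 of 36 pairs were at or above 0.25, a value chosen after the correlations were seen, which 0.524% of all pairs of genes reached (the 99th percentile was 0.22 over these pairs and 0.32 over pairs of genes read in at least 75% of cells, as H2-K1, H2-D1, B2m, Psmb8 and Tapbp were); the median was 0.08 over the members' pairs and 0.02 over all pairs. Held at equal numbers of genes read and total reads, the 5 pairs stood between 0.25 and 0.54.

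The light chain did not follow the heavy chains. B2m had a rho of -0.02 with H2-K1 and -0.01 with H2-D1, with both signs among the 4 combinations. Instead, B2m stood at 0.34 with Psmb8 and 0.23 with Psmb9 (-0.04 in eLCs of plate 1). H2-K1 stood at -0.13 with Psmb8, the lowest value of the 36 pairs, and -0.06 with Psmb9. H2-K1 with Psmb8 was at 0.02 in eLCs of plate 2, and at -0.07 when held at equal numbers of genes read and total reads. The 5th percentile over pairs of genes read in at least 75% of cells was -0.18. Calr, which encodes calreticulin, a chaperone of the peptide loading complex, had a rho of -0.29 with B2m and -0.33 with Psmb8, below 0 in each of the 4 combinations for both. With H2-K1 it had 0.17, but -0.09 in eLCs of plate 2. Of the other loading factors and chaperones, Pdia3, Canx and Tapbpl stood nearer 0. They had -0.08, -0.11 and 0.04 with B2m and -0.13, -0.07 and 0.05 with Psmb8. With the class II genes of the gate, H2-K1 had 0.28 for H2-Aa, 0.24 for H2-Ab1 and 0.34 for H2-Eb1, above 0 in each of the 4 combinations; of the same list, Cd74 had 0.13 and Ciita, the class II transactivator, -0.02, both with either sign among the combinations.

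**Figure D5:**
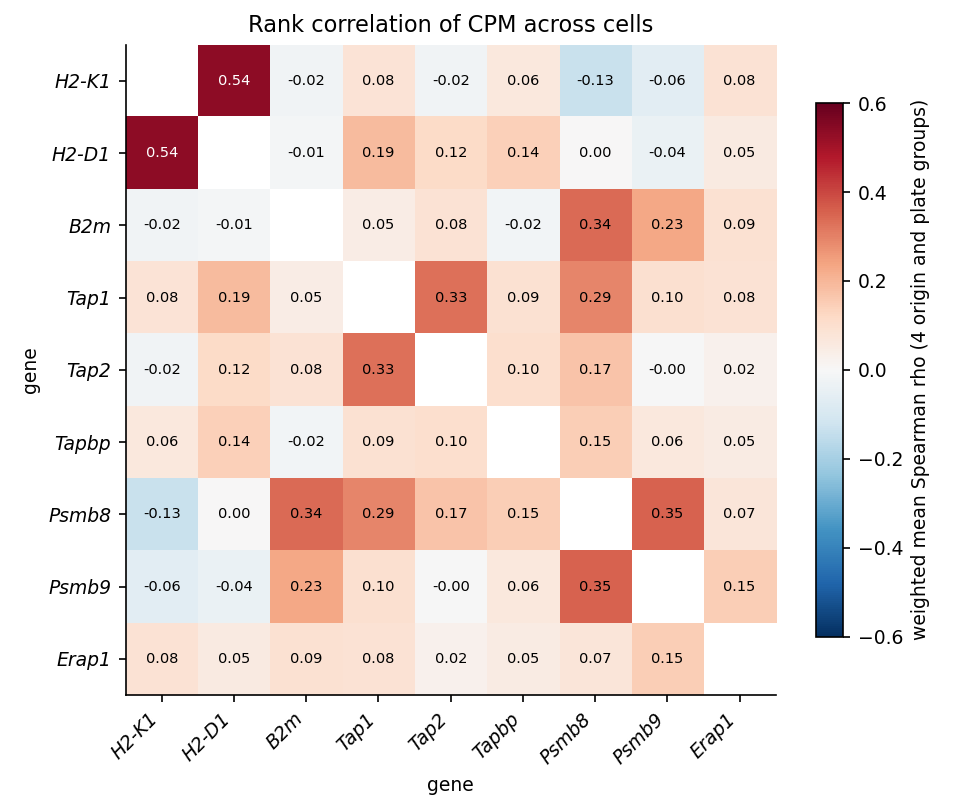
Weighted mean Spearman's rho of CPM across 182 cells for each pair of 9 genes (both axes; colour, rho from -0.6 to 0.6, with the value in each square). H2-K1 with H2-D1 is the darkest square at 0.54. Psmb8 stands at 0.35 with Psmb9, 0.34 with B2m and 0.29 with Tap1, and Tap1 stands at 0.33 with Tap2. The squares of B2m with both heavy chains lie near 0.

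The 3 genes most alike to each member, among 5988 genes read in at least 25% of cells, differed between the sets. For H2-K1 they were H2-D1, Mreg (0.39) and Rbbp6 (0.39), and for H2-D1 they were H2-K1, H2-Q10 (0.42) and H2-Q1 (0.39), 2 genes of the same family that share 75-base stretches with H2-D1 or H2-K1. For B2m they were Cox4i1 (0.52), a subunit of the respiratory chain, Gm10076 (0.50) and Rps25 (0.47), a ribosomal protein gene, each read in all cells. For Psmb8 they were Sh3bgrl3 (0.49), S100a4 (0.40) and Ucp2 (0.39), and for Psmb9 they included Psmb8 and Itm2b (0.34). For Tap1 they included Tap2 and Psmb8, and Tap2 was most like Tap1, Actr1a (0.32) and Snapin (0.30). For Tapbp (Scaf11 at 0.35, Rab1b at 0.34 and Ei24 at 0.32) and Erap1 (Naa10 at 0.28, Adh5 at 0.27 and Gm4735 at 0.27), no other member was among the 3.

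Of the 10 genes, 7 lie on chromosome 17 (GRCm38, GENCODE M21), in the order Tapbp, H2-K1, Psmb9, Tap1, Psmb8, Tap2 and H2-D1, and 4 of them, from Psmb9 to Tap2, lie within 34.3 kb (chr17:34181987-34216321). Tapbp (chr17:33915899-33929292) and H2-K1 (chr17:33996017-34000347) lie before them and H2-D1 (chr17:35262730-35267499) after, while B2m lies at chr2:122147686-122153083 and Erap1 at chr13:74639568-74693201, both on the plus strand. By their RefSeq starts, Psmb9 and Tap1 have 225 bases between them on opposite strands, whereas their GENCODE models overlap. This pair had a rho of 0.10, while Tap1 and Tap2 had 0.33 and Psmb8 and Psmb9 0.35. Of the other pairs among these 4 genes, Tap1 and Psmb8 had 0.29, Tap2 and Psmb8 0.17 and Tap2 and Psmb9 -0.0042. Tap2 was read in 65.6% of the 93 cells with a Tap1 read and in 31.5% of the 89 cells without, and Psmb9 in 41.9% and 33.7% of the same cells. For Tap2 the order was the same in moLCs (59.2% and 22.2%) and eLCs (72.7% and 45.7%), whereas for Psmb9 it was 40.8% and 25.9% in moLCs but 43.2% and 45.7% in eLCs. The counts are not known to use strand, and Psmb9 overlaps Tap1 in the annotation, as Cast does Erap1 and Patl2 does B2m, so reads in those overlaps cannot be told apart.

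Other genes of the pathway were described by lists. Of 18 other class I heavy chain genes, 11 were tested and 1 was past the rule for size, H2-Q6, a Qa-2 heavy chain gene, which was higher in moLCs (0.813% of all genes tested were past it in that direction). Cells with an H2-Q6 read made up 58.3% of moLCs (48.1 to 67.9%) and 38% of eLCs (27.3 to 49.6%), from 0 to 1449 CPM in moLCs (median 0.796) and from 0 to 688 CPM in eLCs (median 0). The ranges overlapped, and the sums of 101.2 and 36.2 CPM gave a log2 ratio of 1.48 (1.45 to 1.52), with 1.58 on plate 1 and 1.30 on plate 2. Its neighbour H2-Q7 stood at 0.59 (0.91 and 0.22 within plates). Since 17.9% of the 75-base stretches of H2-Q6 occur in other genes, H2-Q7 most often, the 2 were also summed, an alternative chosen after the values were seen; the log2 ratio was then 1.14, with 1.33 on plate 1 and 0.89, less than 2-fold, on plate 2. Of the same list, H2-M2 (3711 CPM in moLCs and 3039 CPM in eLCs) and H2-T23 (300.2 and 290.7 CPM) had the most reads.

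In the remaining lists of the pathway 1 gene was past the rule. Of 7 other loading factors and ER chaperones, all tested, 0 were past it, with a median log2 ratio of 0.01; Hspa5 (6259 and 4569 CPM) and Pdia3 (985.6 and 969.5 CPM) had the most reads. All 5 genes of the list of Psmb10, proteasome activators and Pomp were below 0, with a median of -0.14 and 0 past the rule; Pomp, which assembles the proteasome, stood at -0.05 and Psme2, a subunit of the PA28 activator, at -0.14. The 3 constitutive subunits, led in reads by Psmb6 and Psmb5, had 0 past it and a median of -0.16. Of 8 other peptidases, 6 were tested and 1 was past it, Ide, lower in moLCs at 7.56 CPM against 40.4 CPM (1.21% of all genes tested were past it in that direction); Nrd1 and Tpp2 had the most reads. Of 15 transcription factors of class I genes, 12 were tested and 0 were past it, with a median of -0.25, led in reads by Rela (359.7 and 372.2 CPM) and Nfkb1 (255.1 and 260.9 CPM). Cross-presentation genes (6 of 9 tested, median 0.05, led by Vcp and Derl1), class II genes (7 of 7, median -0.07, led by Cd74 and H2-Ab1) and interferon-stimulated genes (2 of 30, Oas1a and Ly6e) had 0 past it. Of the interferon-stimulated genes, 13 of 30 had no read in any kept cell.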

How the data were processed

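The authors sorted single cells, made cDNA with a Takara Smart-Seq kit and Nextera XT libraries, sequenced paired ends of 75 bases, aligned them to mm10 with STAR (also named in the submitters' processing notes) and deposited unnormalized counts of reads for each gene in each cell. The counting tool and gene annotation are not given in the sources used here. In 8 cells the deposited columns hold 9 values midway between whole numbers, which were taken for expected counts and rounded; how the authors made them is not stated. Every deposited column was matched to a cell by its label, with 0 left over. The authors' filter of 5% mitochondrial reads left out 3 moLCs.

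Cells were grouped by origin and plate as labelled. The study's methods test single cells against each other, a use of cells as replicates that was not followed here. Reads were summed by origin and divided by all reads on genes (CPM); an origin at 0 was set to 3 reads over the group. Intervals are exact Poisson (sums), exact Clopper-Pearson (shares) and exact binomial (ratios of 2 sums). Named genes were all 10 members, the genes of each list past the rule for size or with the 2 highest sums, and for each member the 3 genes with the highest mean rho, of which 2 are not reported here. Members and lists were chosen with earlier results of these data known. Shared 75-base stretches were counted over all GENCODE M21 transcripts, and gene names matched for 45495 of 45661 genes listed. Thinning to 2052512 reads left out 7 moLCs and 12 eLCs. It was run on reads, not molecules. The 2 most alike cells had a Pearson correlation of 0.56 over log2(CPM + 1), so no library appeared to be a copy of another. Python 3.11.15 (numpy 2.4.6, pandas 2.3.3, scipy 1.17.1, matplotlib 3.10.9) was used, with TMM factors from edgeR 4.0.16 in R 4.3.3. The rule for size and the correlations were tried on simulated counts. The differences planted there were larger than 2-fold, so recovery at the rule's own threshold was not tested. Alternatives were other scalings, cell filters, depths, weights, thresholds, plates, kinds of correlation and gene lengths, and each cell left out in turn.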

Additional observations from a re-analysis of the deposited data

How the results depend on the processing

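No paired analysis was possible because the labels give well positions and no replicate numbers, and cells are not replicates. The count of members past the rule for size stayed at 0 under every alternative run (0 to 0 with each cell left out), and all 20 shares of cells stayed within their intervals after thinning. The members' median log2 ratio, -0.22, was -0.12 with TMM factors and with median-of-ratios size factors, -0.15 with totals that leave out the 50 most abundant genes, -0.077 with equal weight for each cell, -0.21 with the 3 excluded cells put back, -0.19 after thinning, -0.19 with no filter and Nlrc5 set against 3 reads, -0.15 on plate 1 alone, and from -0.25 to -0.18 with each cell left out. Under these alternatives H2-K1, Tap1 and Tap2 stayed below 0 and Erap1 above 0, while H2-D1, B2m, Tapbp, Psmb8 and Psmb9 each crossed 0 under at least 1; the cause was not tested. H2-Q6 ran from 1.14 (summed with H2-Q7) to 1.66.

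The median rank correlation between members, 0.085, was 0.075 as Pearson's r of log2(CPM + 1) and after thinning, 0.072 as a partial correlation, 0.090 with the 3 excluded cells put back, and 0.076 to 0.090 with each cell left out. In single combinations it was 0.16 (moLCs, plate 1), -0.0068 (moLCs, plate 2), 0.0084 (eLCs, plate 1) and 0.11 (eLCs, plate 2).

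The immune shares moved with gene length and weighting. With the longest coding transcripts they were 38.3% in moLCs and 38.4% in eLCs for Psmb8, 5.18% and 5.19% for Psmb9, and 33.5% and 41.7% for Psmb10. As means of the cells' own shares they were 28.1% and 27.6%, 5.72% and 5.88%, and 26.3% and 29.7%. With each cell left out they ran from 22.1 to 23.7% and 22.4 to 24% for Psmb8, 4.0 to 4.64% and 4.07 to 4.74% for Psmb9, and 52 to 54.7% and 58.9 to 62.7% for Psmb10, for moLCs and eLCs in turn.

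With 1 sample per origin, no interval here covers differences between animals. Depth does not limit the 3 genes read in every cell; for the others, no read in a cell does not show that the transcript was absent.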
